A study of Homo sapiens with 3 samples.

Results

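The peaks of chromosomes 5, 16 and 18 were taken from ChIP-seq of HuCCT1 cells, an established line of cancer of the bile ducts. Chromatin had been precipitated with antibodies against SBNO1, against TAF4 and with control IgG, and the labels name no treatment or genetic change for any group. There was 1 library per antibody, made from pooled immunoprecipitates, so that neither the spread between cultures nor differences between antibodies could be tested. All peaks on these chromosomes were members, 3168 of the 30508 peaks in the lists. They comprised 1700 of 16147 SBNO1 peaks, 1303 of 12763 TAF4 peaks and 165 of 1598 IgG peaks. By chromosome there were 1426 SBNO1, 1000 TAF4 and 134 IgG peaks on chromosome 5, 182, 226 and 26 on chromosome 16, and 92, 77 and 5 on chromosome 18. The sequencing depth of the libraries is unknown, and the lists give no signal beside a score that ends at 1000.

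The chromosomes had been chosen from these lists as the most and the least densely bound autosomes, so their peak density, promoter binding and distal density are given here as descriptions. The shares of peaks and genes that carry both proteins rest on the same peaks, and are descriptions as well. Density is the number of peaks per megabase (Mb) of known sequence on GRCh38. The label held for chromosome 18 in both lists, and only in part for the others. Chromosome 5 was the 5th of the 22 autosomes in SBNO1 density and the 10th in TAF4 density, whereas it led both lists by the share of genes with a promoter peak and by peaks per gene. Chromosome 16 was the second lowest in SBNO1 density and the fifth lowest in TAF4 density. The other 19 autosomes served as the comparison.

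TAF4 is a subunit of TFIID, the general transcription factor that recognizes core promoters and helps to place RNA polymerase II at the transcription start site (TSS). SBNO1 is the human homolog of Drosophila strawberry notch, a nuclear protein with helicase-like motifs that has been linked to Notch and EGFR signaling. Human chromosomes differ in how many genes they carry. Chromosome 18 is known as gene-poor and chromosome 16 as gene-rich, while chromosome 5 is large, with long gene-poor stretches beside dense clusters such as the protocadherin and cytokine genes of its long arm. IgG measures the background of the same procedure. Marker genes were looked up for promoter peaks only, which measure neither expression nor cell identity. KRT19, SOX9 and EPCAM, which mark biliary epithelium, had promoter peaks of SBNO1 and TAF4, and KRT7 had one of TAF4. At EPCAM the SBNO1 peak (47368925 to 47369294) and the TAF4 peak (47345043 to 47345232) lay apart. The hepatocyte genes ALB, APOA1 and TTR had none, where SBNO1 bound 21.8% and TAF4 27.2% of all protein-coding genes.

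The sequences at some high-scoring distal SBNO1 peaks are given as examples of these regions outside promoters. Distal means over 10 kb from every protein-coding TSS, and the 2 highest-scoring such peaks per chromosome without an IgG peak are shown as 200 bp at the peak centre (GRCh38, plus strand). They were tied with other peaks at the score cap of 1000. The widest of the tied peaks were taken, so they need not be typical. Each is named by the gene of the nearest TSS. Capitals mark the AP-1 consensus TGANTCA, with C or G at N, which is read by FOS and JUN proteins. In the ZSWIM6 window, which had no such match, capitals mark CCAAT on the minus strand, the core of the sequence bound by NF-Y. Both strands were searched.
ZSWIM6, chr5:61304759-61304958: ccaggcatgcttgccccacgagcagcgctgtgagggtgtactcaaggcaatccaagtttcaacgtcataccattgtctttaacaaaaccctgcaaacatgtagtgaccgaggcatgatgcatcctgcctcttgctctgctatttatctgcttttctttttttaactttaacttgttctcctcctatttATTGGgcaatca
ICE1, chr5:5335825-5336024: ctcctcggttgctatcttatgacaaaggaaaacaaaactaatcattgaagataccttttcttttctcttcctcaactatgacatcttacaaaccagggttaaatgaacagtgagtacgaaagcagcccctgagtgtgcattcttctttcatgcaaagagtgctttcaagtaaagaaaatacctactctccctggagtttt
ZNF469, chr16:88234697-88234896: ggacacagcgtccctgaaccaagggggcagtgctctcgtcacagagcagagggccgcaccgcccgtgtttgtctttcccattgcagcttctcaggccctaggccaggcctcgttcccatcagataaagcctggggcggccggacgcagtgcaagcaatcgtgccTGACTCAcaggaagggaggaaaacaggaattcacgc
CDH1, chr16:68756344-68756543: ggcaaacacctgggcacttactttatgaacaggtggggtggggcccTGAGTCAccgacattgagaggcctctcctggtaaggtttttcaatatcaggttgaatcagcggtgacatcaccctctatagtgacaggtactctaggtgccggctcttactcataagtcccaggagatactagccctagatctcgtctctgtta
RAB31, chr18:9743604-9743803: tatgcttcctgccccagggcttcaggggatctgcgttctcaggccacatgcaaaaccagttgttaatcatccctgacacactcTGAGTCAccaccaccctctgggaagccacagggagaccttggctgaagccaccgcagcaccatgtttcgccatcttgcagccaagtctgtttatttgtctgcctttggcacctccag
SOCS6, chr18:70422199-70422398: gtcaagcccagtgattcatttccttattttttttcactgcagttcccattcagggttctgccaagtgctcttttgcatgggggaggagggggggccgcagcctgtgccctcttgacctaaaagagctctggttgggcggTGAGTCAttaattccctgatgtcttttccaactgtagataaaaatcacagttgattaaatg

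The CDH1 peak (chromosome 16, 68756188 to 68756699) was centred in an intron of CDH1, the gene of the epithelial adhesion protein E-cadherin, 18836 bp from its nearest TSS. The RAB31 peak (chromosome 18, 9743447 to 9743960) lay in an intron of this gene for a small GTPase of vesicle transport, 35146 bp from the TSS. The other peaks lay between genes, 26892 bp from ZSWIM6, 84269 bp from ICE1, 147892 bp from ZNF469 and 107951 bp from SOCS6, which encodes a suppressor of cytokine signaling. All 6 peaks reached the score cap of 1000 and overlapped a TAF4 peak, with TAF4 scores of 1000, 1000, 834, 800, 859 and 1000 in the order shown. Both windows of chromosome 5 lacked the AP-1 consensus in these 200 bases and all 4 windows of chromosomes 16 and 18 held 1 match, which was not the pattern over all distal peaks.

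Over all distal SBNO1 peaks, the AP-1 consensus was found in the central 200 bp of 309 of 878 on chromosome 5 (35.2%, 95% Clopper-Pearson interval 32.0% to 38.5%). On chromosome 16 it was found in 33 of 84 (39.3%, 28.8% to 50.5%) and on chromosome 18 in 26 of 62 (41.9%, 29.5% to 55.2%). The share on the other autosomes was 37.3% of 7589 peaks, ranging from 22.8% on chromosome 21 to 47.1% on chromosome 6. The interval of each of the 3 chromosomes thus included the share elsewhere. In windows of the same length 1 kb to the right, the share was 3.99%, 7.14% and 3.23% on chromosomes 5, 16 and 18. Distal IgG peaks also held the match at the centre, in 23 of 98 on chromosome 5 (23.5%) and in 13.4% of 1026 on the other autosomes. Their windows 1 kb to the right held it in 5.10% and 2.44%, respectively. On chromosomes 16 and 18 it was found in 0 of 25 and 0 of 5 distal IgG peaks. The part of this background in the SBNO1 shares was not tested. Near the TSS, within 1 kb, the match was found in 5.11% of SBNO1 peaks on chromosome 5 and 7.24% on the other autosomes. All intervals given here cover counting error only.

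Peak density differed several-fold between the chromosomes. Chromosome 5 carried 7.87 SBNO1 peaks per Mb (exact Poisson interval 7.46 to 8.29), chromosome 16 carried 2.22 (1.91 to 2.57) and chromosome 18 carried 1.15 (0.926 to 1.41), compared with 5.88 on the other autosomes together. The ratios to the other autosomes were 1.338 (1.27 to 1.41), 0.379 (0.325 to 0.438) and 0.195 (0.157 to 0.2399), respectively. Chromosome 17 had the highest density, 12.95, and chromosome 1 stood just below chromosome 5 with 7.70. At the low end chromosome 13 came next above chromosome 16 with 2.64.
For TAF4, the densities were 5.52 (5.18 to 5.87) on chromosome 5, 2.76 (2.41 to 3.15) on chromosome 16 and 0.961 (0.759 to 1.202) on chromosome 18, against 4.64 on the other autosomes. This gave ratios of 1.19 (1.11 to 1.27), 0.595 (0.519 to 0.679) and 0.207 (0.163 to 0.259). Chromosome 16 was thus the only one of the 3 with more TAF4 than SBNO1 peaks. Among the other autosomes, chromosome 19 also had more, with 534 TAF4 and 482 SBNO1 peaks.
The IgG background moved the same way. Its density was 0.739 on chromosome 5, 0.318 on chromosome 16, 0.0624 on chromosome 18 and 0.562 on the other autosomes, with ratios of 1.31 (1.09 to 1.57), 0.565 (0.368 to 0.832) and 0.111 (0.0360 to 0.2597). The part of this background in the densities of SBNO1 and TAF4 was not tested. There was no library of input DNA, so the number of copies of each chromosome in these cells was not measured. Its part in the densities of all libraries was not tested either. Leaving out every peak that overlapped an IgG peak kept each density ratio of SBNO1 and TAF4 within its interval. Those peaks were 8.57% of SBNO1 and 10.9% of TAF4 peaks over all chromosomes. Their removal cannot show how much background the remaining peaks hold.

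**Figure D1:**
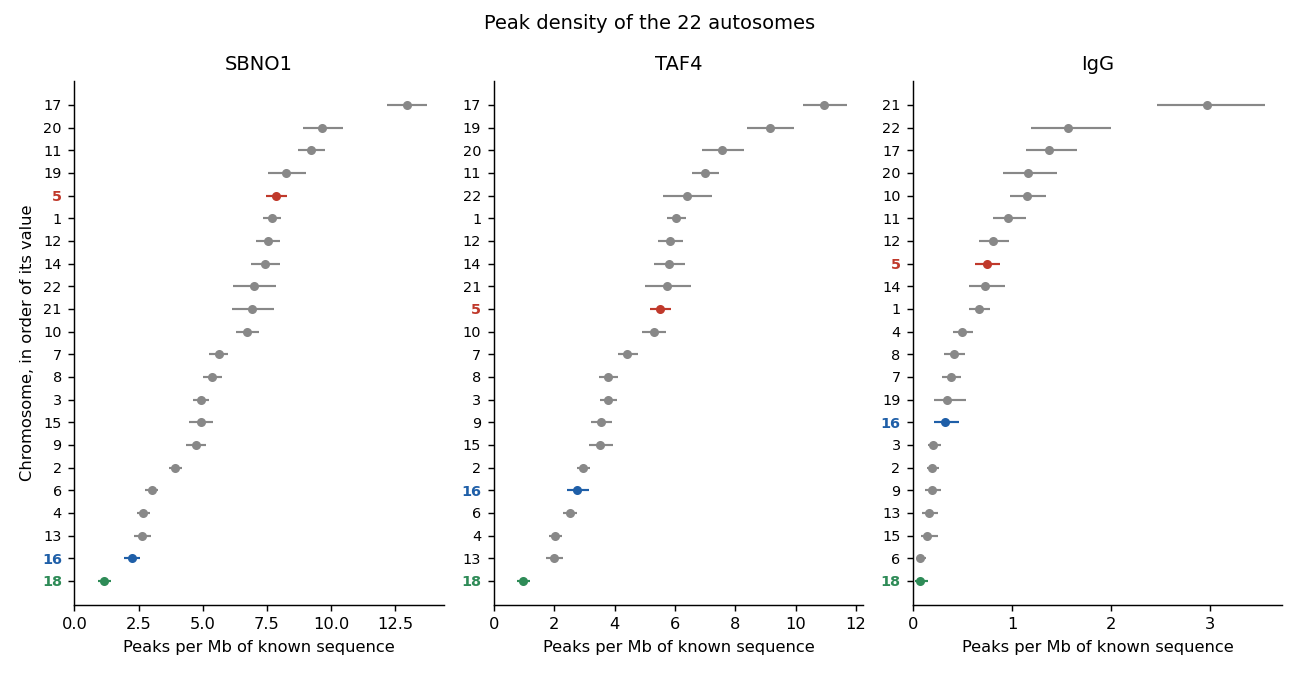
Peaks per Mb of known sequence (x axis, linear) for each of the 22 autosomes (y axis, ordered by value) in the SBNO1, TAF4 and IgG lists; points are densities and bars exact 95% Poisson intervals. Chromosome 18 (green) is lowest in all 3 panels, chromosome 16 (blue) is second lowest for SBNO1, and chromosome 5 (red) stands at rank 5, 10 and 8 from the top.

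The chromosome arms did not contribute alike on chromosome 5. The long arm, 5q, carried 8.70 SBNO1 peaks per Mb (8.20 to 9.21) and the short arm, 5p, 5.57 (4.93 to 6.28), which was below the pooled density of the other autosomes. TAF4 followed with 6.13 and 3.83 peaks per Mb, and so did IgG with 0.835 and 0.477. On chromosome 16 both arms were alike for SBNO1, with 2.22 on 16p and 2.23 on 16q, although 16p held 12.7 protein-coding genes per Mb and 16q 8.34. TAF4 was denser on 16p (3.22, 2.67 to 3.85) than on 16q (2.39, 1.96 to 2.88), with overlapping intervals. On chromosome 18 the short arm carried 1.56 SBNO1 peaks per Mb and the long arm 1.04, the latter being the second lowest of 40 arms and the lowest of all for TAF4 with 0.812.

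Along the chromosomes, counted in bins of 5 Mb, the low density of chromosomes 16 and 18 was spread over their whole length. The median bin held 7.90 SBNO1 peaks per Mb on chromosome 5 (range 0 to 18 over 36 bins), 1.82 on chromosome 16 (0 to 5.42 over 17 bins) and 1.30 on chromosome 18 (0 to 2.63 over 16 bins). For TAF4 the medians were 4.62, 2.20 and 0.904. On the other autosomes the medians were 4.40 for SBNO1 and 3.20 for TAF4 over 486 bins. The densest bin of chromosome 18 thus lay below the median bin elsewhere.

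The densest SBNO1 bin of chromosome 5 (140000001 to 145000000) held 90 SBNO1, 67 TAF4 and 8 IgG peaks among 96 genes, and it contains the protocadherin cluster as well as HBEGF, SPRY4, FGF1 and NR3C1. The next densest, 55000001 to 60000000 and 70000001 to 75000000, held 82 SBNO1 peaks each, among only 23 and 27 genes. The bin from 55 Mb includes IL6ST and MAP3K1, which encode a shared cytokine receptor chain and a MAP kinase kinase kinase. By contrast, 20000001 to 25000000 held no SBNO1 peak and 1 TAF4 peak among 4 genes, and 25000001 to 30000000 held 4 and 1.
On chromosome 16, the densest bins were 30000001 to 35000000 with 26 SBNO1 and 37 TAF4 peaks, 65000001 to 70000000 with 27 and 20, and 85000001 to 90000000 with 23 and 26. The first of these also held 14 of the 26 IgG peaks of the chromosome. The bin at the tip of 16p (1 to 5000000) contained 190 genes, yet 16 SBNO1 and 27 TAF4 peaks.
On chromosome 18, the densest bin, 20000001 to 25000000, held 13 SBNO1 and 12 TAF4 peaks. No peak of either protein was found in 25000001 to 30000000 or in 40000001 to 45000000, which hold 8 and 4 genes. The longest stretch of chromosome 18 without an SBNO1 peak measured 9.36 Mb (36373283 to 45731212) and held 9 gene starts, while that without a TAF4 peak measured 12.7 Mb and held 28. On the other autosomes the longest stretches ranged up to 18 Mb for SBNO1, with a median of 5.69 Mb, and up to 22.5 Mb for TAF4.

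**Figure D2:**
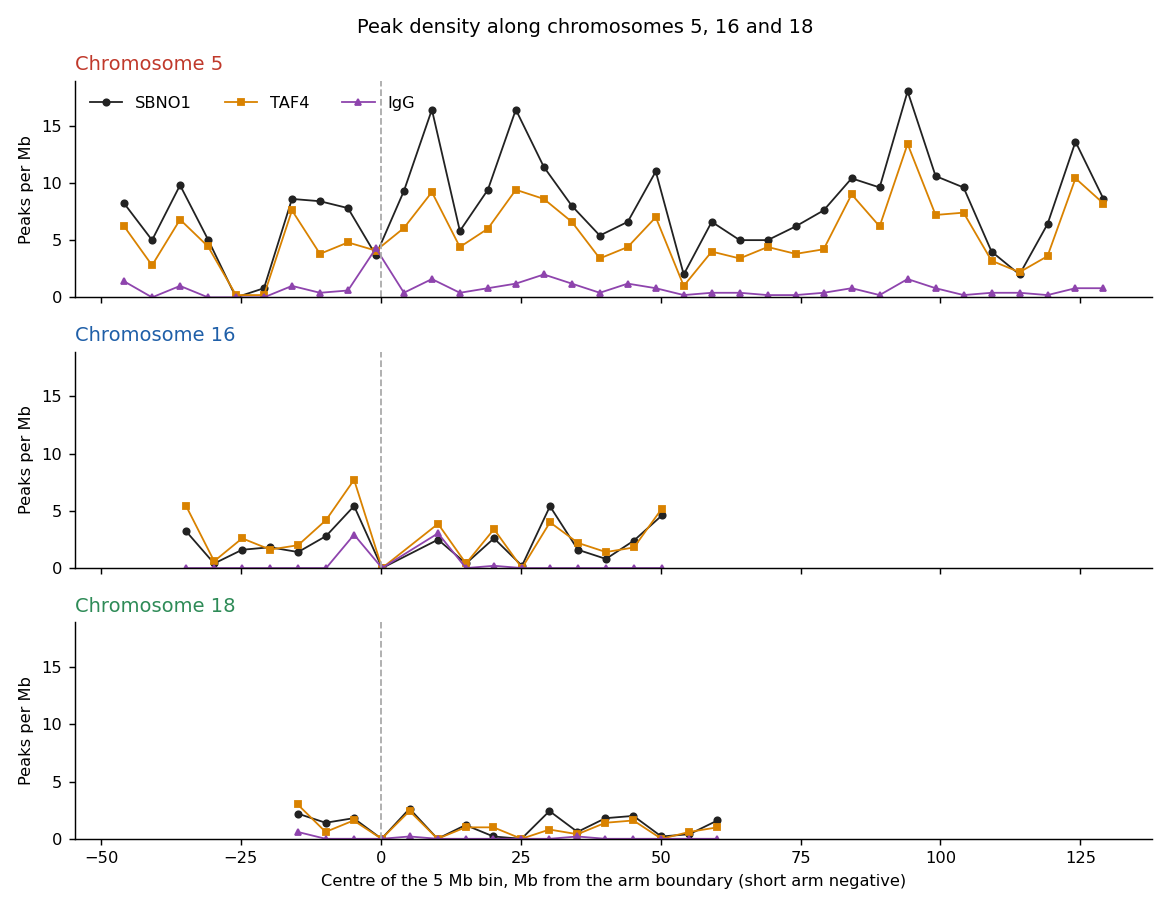
Peaks per Mb (y axis, linear) in bins of 5 Mb along chromosomes 5, 16 and 18 for SBNO1 (black circles), TAF4 (orange squares) and IgG (purple triangles); the x axis is the bin centre in Mb from the arm boundary (dashed line), with the short arm negative. SBNO1 reaches 18 on chromosome 5 and stays at or below 5.42 on chromosome 16 and 2.63 on chromosome 18, and IgG peaks gather beside the boundary on chromosomes 5 and 16.

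Gene number did not follow these densities. Chromosome 16 held 10.3 protein-coding genes per Mb, the fourth highest of the autosomes, chromosome 5 held 4.81 and chromosome 18 held 3.27, with 6.96 on the other autosomes. Per gene, there were 1.64 SBNO1 and 1.15 TAF4 peaks on chromosome 5, 0.216 and 0.268 on chromosome 16, and 0.351 and 0.294 on chromosome 18. Both values of chromosome 5 exceeded the highest of the other autosomes, 1.27 and 1.05, and both of chromosome 16 were the lowest of all. By arm, however, 12p had more SBNO1 peaks per gene (1.81) than 5p (1.77) or 5q (1.61). For TAF4, 6q had fewer peaks per gene (0.233) than 16p (0.254).
Each bin was therefore set beside bins of like gene number on the other autosomes. Among all 555 bins, 46.8% exceeded the median of their class for SBNO1 and 47.4% for TAF4. On chromosome 5 this held for 32 of 36 bins in both lists. On chromosome 16 it held for 0 of 17 bins for SBNO1 and for 1 of 17 for TAF4, the bin 45000001 to 50000000, where 11 IgG peaks lay. On chromosome 18 it held for 0 of 16 bins in both lists. Relative to the count that bins of like gene number would give, chromosome 5 had 1.63 times as many SBNO1 peaks (1.55 to 1.72), chromosome 16 had 0.300 times (0.258 to 0.347) and chromosome 18 had 0.280 times (0.226 to 0.344). For TAF4 these values were 1.50 (1.41 to 1.60), 0.452 (0.395 to 0.516) and 0.322 (0.254 to 0.402). On this scale chromosomes 16 and 18 were alike for SBNO1 within their intervals. IgG gave 1.39, 0.529 and 0.122.

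**Figure D3:**
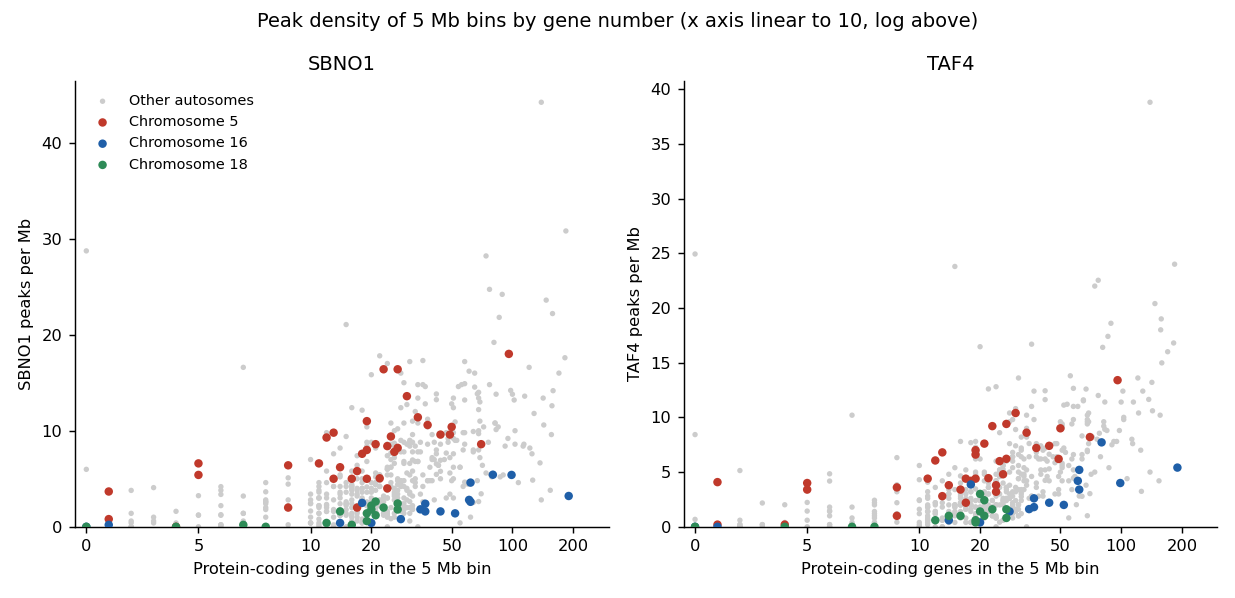
Peaks per Mb (y axis, linear) against the number of protein-coding genes in the bin (x axis, linear up to 10 and logarithmic above) for 5 Mb bins of chromosomes 5 (red), 16 (blue) and 18 (green) and of the other autosomes (grey), for SBNO1 and TAF4. Of the bins of chromosome 5, 32 of 36 lie above the median of their gene number class, whereas for SBNO1 all 17 bins of chromosome 16 and all 16 of chromosome 18 lie below it.

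Next, the genes with a promoter peak were counted. A gene was called promoter-bound when a peak lay within 1 kb of its TSS and no other TSS was nearer to that peak. Of all protein-coding genes, 21.8% were promoter-bound by SBNO1 and 27.2% by TAF4. On chromosome 5, SBNO1 bound 304 of 872 genes (34.9%, 31.7% to 38.1%) and TAF4 335 (38.4%, 35.2% to 41.7%). On chromosome 16, SBNO1 bound 56 of 843 genes (6.64%, 5.06% to 8.54%) and TAF4 122 (14.5%, 12.2% to 17.0%). On chromosome 18, SBNO1 bound 15 of 262 genes (5.73%, 3.24% to 9.27%) and TAF4 37 (14.1%, 10.1% to 18.9%). The other autosomes ranged from 12.8% to 29.97% for SBNO1 and from 20.1% to 35.5% for TAF4, so that all 3 chromosomes lay outside these ranges. Chromosomes 16 and 18 could not be told apart by this share, although their gene density differed. By arm, the extremes were not particular to these chromosomes. For SBNO1, 12p (38.9%) stood above 5q (35.3%), 7p (35.0%) and 5p (32.9%). The arms 16p (6.82%), 18q (6.63%), 16q (6.42%) and 18p (3.03%) ranked 35, 36, 37 and 39 of 40. For TAF4, 5q (39.4%) was followed by 7p (39.1%), and 5p (33.6%) ranked 10. IgG bound 1.16% of all genes, 23 genes on chromosome 5 (2.64%, 1.68% to 3.93%), 1 on chromosome 16 (0.119%, 0.00300% to 0.659%) and 0 on chromosome 18. For this count of 0, a floor of 3 genes of 262 (1.15%) was set in place of a Clopper-Pearson interval. It cannot place chromosome 18 below the share over all genes.

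**Figure D4:**
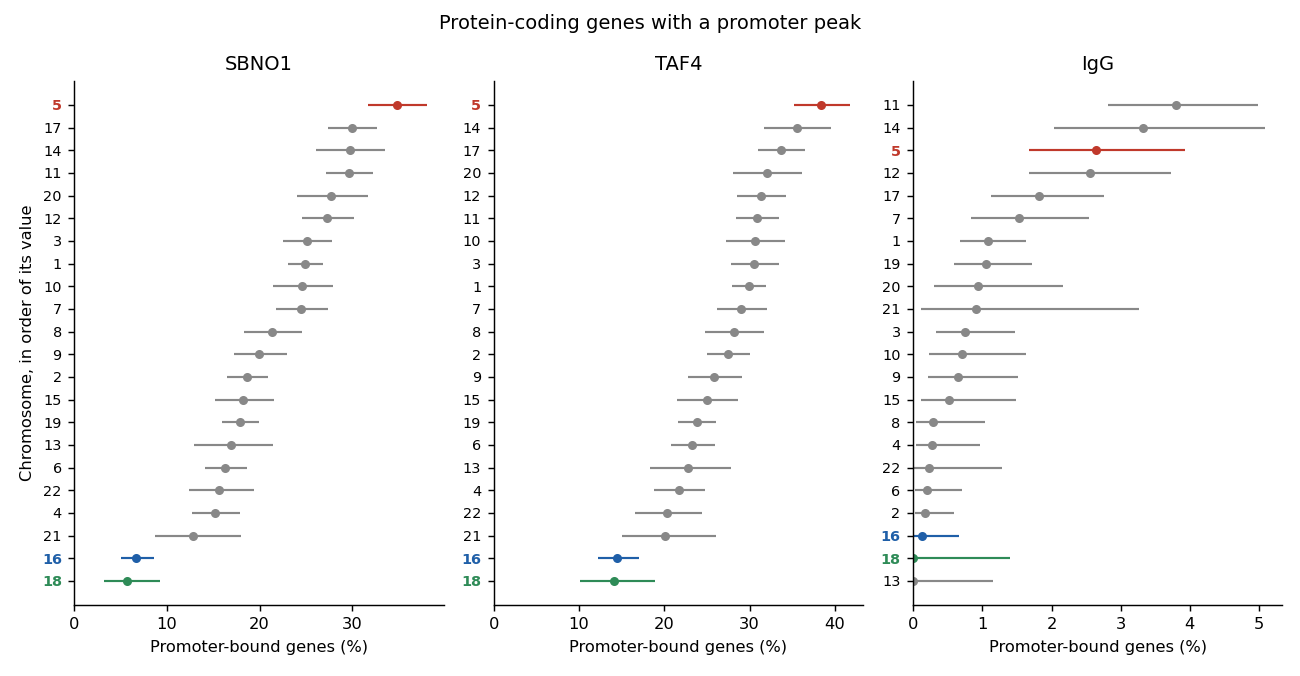
Share of protein-coding genes with a promoter peak in percent (x axis, linear) for each of the 22 autosomes (y axis, ordered by value) in the SBNO1, TAF4 and IgG lists; points are shares and bars 95% Clopper-Pearson intervals. Chromosome 5 (red) leads with 34.9% for SBNO1 and 38.4% for TAF4, and chromosomes 16 (blue) and 18 (green) are the 2 lowest, at 6.64% and 5.73% for SBNO1 and 14.5% and 14.1% for TAF4.

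Promoters differ in their content of G and C, and chromosome 16 is rich in both, so the shares were also compared among genes of like GC content in the 1000 bp around the TSS. Among promoters of 50% to 60% GC, SBNO1 bound 44.6% of 267 genes on chromosome 5, 6.28% of 223 on chromosome 16 and 8.22% of 73 on chromosome 18, against 27.1% on the other autosomes. Among those of 60% to 70%, the shares were 40.2%, 8.33% and 8.64%, against 26.5%. TAF4 in this class bound 46.7%, 16.4% and 17.3%, against 34.1%. In both classes and for both proteins chromosome 5 stood above the other autosomes and chromosomes 16 and 18 below them.

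The libraries did not lose promoters alike. A gene counted as bound by both proteins when each had a promoter peak there, whether or not these peaks overlapped. Genes bound by both proteins made up 29.9% of chromosome 5 (261 genes, 26.9% to 33.1%), 4.74% of chromosome 16 (40 genes, 3.41% to 6.41%) and 4.58% of chromosome 18 (12 genes, 2.39% to 7.86%), with 18% over all genes. Genes bound by TAF4 without SBNO1 made up 8.49%, 9.73% and 9.54% (74, 82 and 25 genes), close to the 9.23% over all genes and to the 9.39% on the other autosomes. Genes bound by SBNO1 without TAF4 made up 4.93%, 1.90% and 1.15% (43, 16 and 3 genes), with 3.79% over all genes. Consequently, SBNO1 was found at 77.9% of the TAF4-bound genes of chromosome 5 (73.1% to 82.2%), but at 32.8% (24.6% to 41.9%) on chromosome 16 and 32.4% (18.01% to 49.8%) on chromosome 18. The other autosomes ranged from 50% to 77.9%. This share depends on the promoter peaks by which the chromosomes were chosen, so it is no independent result. Conversely, TAF4 was found at 85.9%, 71.4% and 80% of the SBNO1-bound genes, where the other autosomes ranged from 72.2% to 87.3%.

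**Figure D5:**
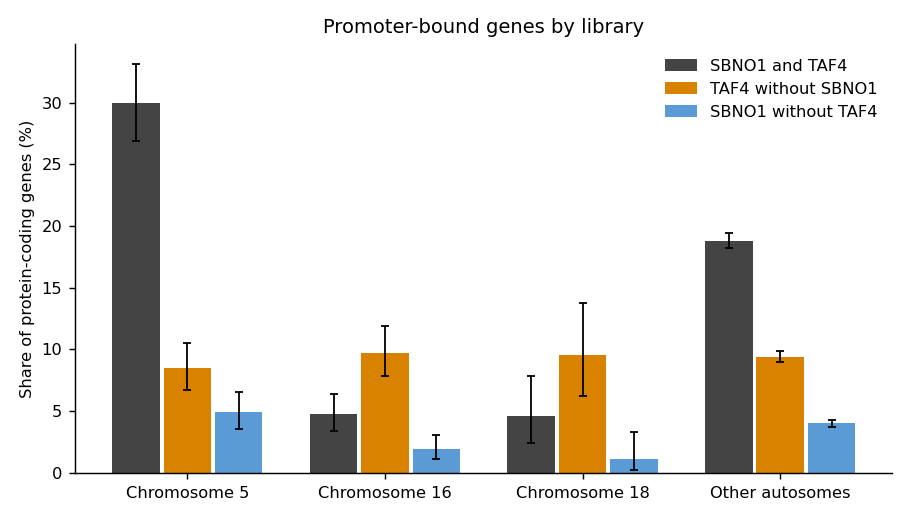
Share of protein-coding genes in percent (y axis, bars from 0) that were promoter-bound by SBNO1 and TAF4 (dark grey), by TAF4 without SBNO1 (orange) and by SBNO1 without TAF4 (blue) on chromosomes 5, 16 and 18 and on the other autosomes; error bars are 95% Clopper-Pearson intervals. The shared class falls from 29.9% on chromosome 5 to 4.74% and 4.58% on chromosomes 16 and 18, while the class of TAF4 without SBNO1 stays between 8.49% and 9.73%.

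The overlap of the peaks themselves was lower for TAF4 on both sparse chromosomes, and for SBNO1 on chromosome 18. Such a share depends on how many peaks the other list holds, by which the chromosomes were chosen. Over all chromosomes, 75.2% of TAF4 peaks overlapped an SBNO1 peak. On chromosome 5 the share was 83.6% (81.2% to 85.8%), on chromosome 16 50.4% (43.7% to 57.1%) and on chromosome 18 49.4% (37.8% to 61.0%). The other autosomes ranged from 62.5% on chromosome 19 to 85.0% on chromosome 11. Within 1 kb of a TSS the shares were 76.3%, 34.6% and 30.8%, and over 10 kb from it 88.3%, 72.6% and 65.6%. Of the SBNO1 peaks, 59.7% overlapped a TAF4 peak over all chromosomes, with 59.0% (56.4% to 61.5%) on chromosome 5, 63.2% (55.7% to 70.2%) on chromosome 16 and 41.3% (31.1% to 52.1%) on chromosome 18. Here chromosome 18 alone lay below the range of the other autosomes, 49.0% to 68.9%.

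Distal peaks were dense on chromosome 5 and sparse on chromosomes 16 and 18. Chromosome 5 carried 4.84 distal SBNO1 peaks per Mb (4.53 to 5.18), chromosome 16 carried 1.03 (0.819 to 1.27) and chromosome 18 carried 0.774 (0.594 to 0.992), compared with 3.14 on the other autosomes. For TAF4 the values were 2.74 (2.51 to 2.99), 0.892 (0.699 to 1.12) and 0.400 (0.273 to 0.564), compared with 1.84. The ratios to the other autosomes were 1.54, 0.327 and 0.246 for SBNO1, and 1.49, 0.485 and 0.217 for TAF4. Over all chromosomes, 8.57% of SBNO1 peaks and 10.9% of TAF4 peaks overlapped an IgG peak. Of the distal peaks on chromosome 16, 22 of 84 SBNO1 peaks (26.2%) and 22 of 73 TAF4 peaks (30.1%) did so, while on chromosome 5 this held for 10.3% and 17.7% and on the other autosomes for 11.2% and 19.3%. Without them the distal ratios of chromosome 16 were 0.271 and 0.420. For SBNO1 peaks outside the 1 kb around TSS, the centre lay in an intron for 38.8% on chromosome 5, 38.4% on chromosome 16 and 57.1% (45.4% to 68.4%) on chromosome 18, where the other autosomes ranged from 23.4% to 52.8%.

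The peaks of chromosome 16 scored like those elsewhere, and those of chromosome 18 somewhat lower. The median SBNO1 score was 867.5 on chromosome 5, 870 on chromosome 16 and 793.5 on chromosome 18, with 870 on the other autosomes. The cap was reached by 35.0%, 31.9% and 26.1% of the peaks, with 34.6% elsewhere. Peaks of both sparse chromosomes were narrower than the pooled peaks of the other autosomes, though not the narrowest of all. SBNO1 peaks had a median width of 429.5 bp on chromosome 5, 370 bp on chromosome 16 and 338.5 bp on chromosome 18, with 395 bp on the other autosomes together. Chromosomes 22 (336.5 bp), 4 (354 bp), 13 (355 bp), 2 (367 bp) and 15 (368.5 bp) also had lower medians than chromosome 16. Near the TSS the difference was larger, with 461.5, 325 and 318 bp against 419 bp, and chromosome 22 came next with 338 bp. For TAF4 peaks near the TSS the medians were 463, 348 and 358 bp, against 419 bp.

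The IgG peaks of these chromosomes were examined in the same way. Of the 134 IgG peaks of chromosome 5, 119 overlapped an SBNO1 peak and 121 a TAF4 peak, and on chromosome 16 this held for 23 and 24 of 26. Over all chromosomes 84.5% and 87.5% of IgG peaks did so. The widest IgG peaks at the score cap lay beside the centromere on chromosome 5 (49656389 to 49660571) and chromosome 16 (46386120 to 46392103) and at the tip of 18p (107748 to 111643). All 3 overlapped a peak of both proteins at the cap. On chromosome 16, 25 of the 26 IgG peaks lay in 2 clusters on either side of the arm boundary, 14 between 34571691 and 34596162 and 11 between 46380689 and 46401654. The bin that holds the boundary and its direct neighbours took in the first cluster but not the second, and so 53.8% of the IgG peaks of chromosome 16. They contained 19.4% of those of chromosome 5 and 45.2% of those on the other autosomes. Without these bins, the IgG density was 0.649 per Mb on chromosome 5, 0.163 on chromosome 16 and 0.0613 on chromosome 18, against 0.342 on the other autosomes. The SBNO1 densities without them were 7.95, 2.11 and 1.07.

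At the level of single genes, ties at the score cap were ordered by width. The highest-scoring shared promoters of chromosome 5 were then those of CHD1, a chromatin remodeler, GPBP1, which binds GC-rich promoters, and RIMOC1, a partner of the MON1-CCZ1 complex. Both proteins reached the score cap of 1000 at all 3. The SBNO1 peak at CHD1 was 1250 bp wide (98928623 to 98929872) and the TAF4 peak spanned 98928596 to 98930015. On chromosome 16 the leading genes were MGRN1, a ubiquitin ligase, CFAP20, a protein of cilia, and MBTPS1, the site-1 protease that activates SREBP. Their SBNO1 peaks reached the cap and were 541, 424 and 277 bp wide, and TAF4 scored 1000, 1000 and 669. On chromosome 18 they were PIGN, an enzyme of GPI anchor synthesis, TIMM21, a factor of mitochondrial protein import, and CHMP1B, an ESCRT-III subunit, with widths of 373, 332 and 264 bp and TAF4 scores of 787, 977 and 1000.
TAF4 peaks at the cap without SBNO1 lay at AFF4, the scaffold of the super elongation complex, and WWC1, a Hippo pathway protein, on chromosome 5. On chromosome 16 they lay at AARS1, the alanyl-tRNA synthetase, and SPG7, a mitochondrial protease. On chromosome 18 they lay at MEX3C, an RNA-binding ubiquitin ligase, and GATA6, a transcription factor of endoderm development (peak 22169324 to 22169660).

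The 15 genes of chromosome 18 that SBNO1 bound can be listed in full. GNAL and CHMP1B lay on the short arm, and NPC1, LAMA3, TRAPPC8, MAPRE2, SLC14A1, RPL17, TXNL1, PMAIP1, PIGN, KDSR, VPS4B, TIMM21 and MBP on the long arm. TAF4 bound 12 of them, all but SLC14A1, RPL17 and MBP, and at RPL17 a peak of TAF4 was in reach but closer to another gene. Their SBNO1 scores ran from 461 at PMAIP1, the gene of the apoptosis factor NOXA, to 1000 at CHMP1B, RPL17, PIGN, KDSR and TIMM21. None had a promoter peak of IgG. At TXNL1 the SBNO1 peak (56638557 to 56638803) and the TAF4 peak (56651051 to 56651406) lay apart. On chromosome 16, the 56 genes included ribosomal genes (RPS2 with a score of 693 and RPS15A with 989), zinc finger genes of 16p11 (ZNF688 with 802, ZNF689 with 740, ZNF764 with 952 and ZNF785 with 925) and chromatin genes (SRCAP with 1000, INO80E with 1000 and CHD9 with 515). These examples were chosen after the values were seen.

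Finally, gene groups located on these chromosomes were examined. Of 12 replication and mitosis genes on chromosome 5, SBNO1 bound 9 and TAF4 10, where 21.8% and 27.2% of all genes and 34.9% and 38.4% of the genes of this chromosome were bound. The 9 were SKP2, CCNB1, CENPH, CDK7, CCNH, KIF20A, CDC23, CDC25C and HMMR, and TAF4 also bound CCNG1. The SBNO1 peaks at CCNB1, the mitotic cyclin B1, at CDC25C, the phosphatase that activates its kinase, and at SKP2, a subunit of a ubiquitin ligase for cell cycle inhibitors, scored 1000. An IgG peak with a score of 826 lay at CCNH. On chromosome 16, TAF4 bound 1 of 9 such genes, CENPN, and SBNO1 bound 0, where 14.5% and 6.64% of the genes of this chromosome were bound. At ORC6 and CENPT a TAF4 peak was in reach but closer to another gene. PLK1, the mitotic kinase, CDT1, a licensing factor of replication, and E2F4 had no promoter peak, nor had the cadherin gene CDH15, which the list had taken up by its symbol. On chromosome 18, TAF4 bound 1 of 6, ESCO1, and SBNO1 bound 0, so that TYMS and NDC80 had no promoter peak. Of all genes of chromosome 18, TAF4 bound 14.1% and SBNO1 5.73%. The counts on chromosomes 16 and 18 are thus near the background of these chromosomes.

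Of 15 growth factor and immediate early genes on chromosome 5, both proteins bound the same 8, namely MAP3K1, PPP2CA, EGR1, HBEGF, SPRY4, FGF1, NR3C1 and DUSP1, where 29.9% of the genes of this chromosome and 18% of all genes were bound by both. Their SBNO1 scores ran from 450 at NR3C1, the glucocorticoid receptor, and 469 at EGR1, an immediate early transcription factor, to 960 at MAP3K1 and 999 at DUSP1, a phosphatase of MAP kinases. An IgG peak also lay at DUSP1. The growth factor genes GDNF, FGF10, NRG2 and FGF18 had no promoter peak, and neither had the receptor genes CSF1R, PDGFRB and FGFR4. Of the LIF and oncostatin receptor genes of chromosome 5, both proteins bound OSMR and IL6ST, with SBNO1 scores of 1000 and 734, but not LIFR or IL31RA. This was 2 of 4 genes, beside the same 29.9% of the chromosome and 18% of all genes. In the cytokine cluster of 5q31, both proteins bound 4 of 13 genes, CSF2, P4HA2, SLC22A4 and IRF1, with SBNO1 scores of 576, 1000, 576 and 1000. This count is close to the 29.9% of all genes on chromosome 5. The interleukin genes IL3, IL4, IL5, IL9 and IL13 had no promoter peak.

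The protocadherins of chromosome 5, adhesion proteins of neurons, were nearly free of peaks. SBNO1 bound 0 of 53 and TAF4 1, PCDHGC3, with a score of 728, although they lie in the densest bin of the chromosome. Of all genes of chromosome 5, SBNO1 bound 34.9% and TAF4 38.4%, and of all genes in the genome 21.8% and 27.2%. Neither protein bound any of 11 metallothionein genes of chromosome 16 or of 7 desmosomal cadherin genes of chromosome 18. With 6.64% and 5.73% of the genes of these chromosomes bound by SBNO1 and 14.5% and 14.1% by TAF4, counts of 0 in groups of this size are near the background. Of 10 SERPINB genes of chromosome 18, TAF4 bound SERPINB5 and SERPINB2 with a score of 1000 at each, and SBNO1 bound 0. Among laminin and integrin genes, both proteins bound ITGA2 on chromosome 5, the collagen receptor subunit, and LAMA3 on chromosome 18, a chain of the basement membrane laminin of epithelia, whereas LAMA1 had no promoter peak. At ITGA1 an SBNO1 peak lay in reach but closer to another gene, and 0 of 4 integrin genes of chromosome 16 were bound. Each protein thus bound 2 of 8 laminin and integrin genes, near the 21.8% and 27.2% of all genes.
Among 18 genes of the Wnt and TGF-β pathways, SBNO1 bound 2, CTNNA1, which encodes α-catenin, and CTCF, the insulator protein that the list includes. TAF4 bound 7, both of these and 5 more. Over all genes the shares were 21.8% for SBNO1 and 27.2% for TAF4. TAF4 without SBNO1 was found at APC (score 795) and SKP1 (1000) on chromosome 5, at AXIN1 (495) and CDH1 (1000) on chromosome 16 and at TGIF1 (1000) on chromosome 18. SMAD2, SMAD4 and SMAD7 on chromosome 18 had no promoter peak. CDH1 thus carried TAF4 at its promoter and the intronic SBNO1 peak described above. These groups are small, and no test was made on them.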

How the data were processed

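ChIP-seq of HuCCT1 cells was deposited by the authors as 3 peak lists, 1 each for SBNO1, TAF4 and IgG, from immunoprecipitates pooled before sequencing. Single-end reads of 50 bases had been trimmed with ktrim and aligned to GRCh38.p14 with bowtie2 (2.5.4 in the submitters' processing notes). The study's methods name normR as the peak caller and the processing notes list Genrich 0.6.1, so which of them made these lists was not settled. The paper reports far fewer promoters bound within 1 kb of a TSS than the 4288 genes for SBNO1 and 5360 for TAF4 found here. It also places a larger share of the peaks of each protein there. The values given here thus describe the deposited lists and not the peaks that the paper reports. The peak threshold and any use of the IgG library as control were not given in the sources used here. The only measure deposited by the authors is a score, a whole number capped at 1000 whose scaling was not stated. It was used to rank peaks within a list. The depth per sample is unknown, which leaves the number of reads behind a peak open.

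Peak positions were read 1-based. Density was computed per Mb of known sequence. Arms were divided at the median position of the CENP-B boxes in and around the 100 kb richest in them. TSS were those of protein-coding transcripts in GENCODE 44 (78567 sites of 19689 genes), and distance was taken from the peak edge. A peak within 1 kb was assigned to its nearest TSS, and over 10 kb a peak was distal. Peaks sharing 1 bp or more overlapped. Bins of 5 Mb with at least 2.5 Mb of known sequence were classed by gene number (from 0, 10, 20, 40 and 80). Promoter GC was read from the genome for all 18773 autosomal genes. AP-1 (TGANTCA) and CCAAT were searched as exact matches on both strands in 200 bp at the peak centre.

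Intervals are exact Poisson or Clopper-Pearson intervals at 95%, for a ratio of densities conditional on the summed count, and cover counting error only. No p-values were computed, since each antibody had 1 library and peaks and genes are not replicates. The members, gene groups and comparisons were chosen with earlier results of these data known. Genes were named by a rule: per chromosome, without IgG-overlapping peaks, the 3 highest-scoring SBNO1 promoter peaks with TAF4, the 2 highest TAF4 promoter peaks without SBNO1 and the 2 highest distal SBNO1 peaks, ties ordered by width and position; the 3 densest and 2 least dense bins with a gene; the highest IgG peak; and members of the gene groups. Groups were taken by symbol and left out ITGAE, BAMBI, DAAM1, DACT2, CDC16 and POLD3, which lie on other chromosomes. The name of 1 gene with an IgG promoter peak is not reported here. Alternatives were other score filters, IgG removal, denominators, TSS sets, overlaps and bin sizes. Functions were tested on simulated data. Python 3.11.15, numpy 2.4.6, scipy 1.17.1 and matplotlib 3.10.9 were used.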

Additional observations from a re-analysis of the deposited data

How the results depend on the processing

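For 48 results, 204 values were recomputed under an alternative. Of these, 151 stayed within the counting interval of the reported value, 51 moved beyond it and 2 changed direction, both of IgG. Every ratio of SBNO1 and TAF4 for arms, distal peaks and bins of like gene number kept its side of 1 under the alternatives run, as did every SBNO1 and TAF4 ratio for chromosomes. No paired analysis was possible because there was a single library for every antibody, and for the same reason none could be left out. The cause of the changes below was not tested.

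The IgG ratios changed direction for chromosome 5 with scores at or above the list median (0.833) and for chromosome 16 with bases covered (1.10). With that score filter, the density ratio was 0.152 for SBNO1 and 0.160 for TAF4 on chromosome 18, 1.11 for TAF4 on chromosome 5, 0.710 for TAF4 on 5p and 0.967 for IgG on chromosome 16, and the distal TAF4 ratio of chromosome 5 was 1.29. Per protein-coding gene, an alternative added after the data were seen, the ratios of chromosomes 5, 16 and 18 were 1.94, 0.256 and 0.416 for SBNO1 and 1.72, 0.402 and 0.441 for TAF4, and that of IgG on chromosome 5 was 1.90. Against the median of the other autosomes, chromosome 5 had 1.17 for SBNO1 and 1.04 for TAF4, and by bases covered 1.41 for SBNO1. Without the bins at the arm boundary, also added afterwards, IgG on chromosome 5 had 1.90. With the TSS of all annotated genes, the distal ratios of chromosome 5 were 1.70 for SBNO1 and 1.70 for TAF4. With bins of 10 Mb, the ratio to bins of like gene number was 0.366 for SBNO1 on chromosome 18 and 0.389 and 0.442 for TAF4 on chromosomes 16 and 18. With classes of GC content it was 0.394 for TAF4 on chromosome 16.

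With every gene in reach counted, the promoter-bound share was 40.4% for SBNO1 and 43.9% for TAF4 on chromosome 5 and 18.9% for TAF4 on chromosome 16, against 26.9% and 33.0% on the other autosomes. With 1 TSS per gene it was 28.9% for SBNO1 and 32.7% for TAF4 on chromosome 5 and 3.05% for SBNO1 on chromosome 18. With scores at or above the median, the shares on chromosomes 5, 16 and 18 were 18.7%, 2.97% and 2.67% for SBNO1 and 25.6%, 7.83% and 6.49% for TAF4, against 11.5% and 17.2% elsewhere.
With a reciprocal overlap of 50%, 48.5% of SBNO1 peaks overlapped TAF4 on chromosome 5 and 30.4% on chromosome 18, and 69.2% and 36.4% of TAF4 peaks overlapped SBNO1. With both lists at or above the median score, the shares on chromosomes 5, 16 and 18 were 38.7%, 42.6% and 30.6% of SBNO1 peaks and 58.1%, 34.5% and 36.7% of TAF4 peaks. Without IgG-overlapping peaks, 55.2% of SBNO1 peaks on chromosome 5 overlapped TAF4. Over whole peaks, the AP-1 consensus was found in 50.6% of distal SBNO1 peaks on chromosome 5 and 66.1% on chromosome 18. In windows 1 kb to the right it was found in 3.99%, 7.14% and 3.23% on chromosomes 5, 16 and 18. Depth being unknown, peaks missing on a chromosome could not be told from peaks below the calling threshold.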

Other observations

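CCAAT, the core of the sequence that NF-Y binds, was found in 62 of 127 TAF4 peaks within 1 kb of a TSS on chromosome 16 (48.8%, 95% Clopper-Pearson interval 39.9% to 57.8%), in the central 200 bp and on either strand. On the other autosomes it was found in 35.2%, with a range from 26.3% to 41.8%. In windows 1 kb to the right the share was 15.7% on chromosome 16 and 22.2% on the other autosomes. At the peak centre it was 33.7% on chromosome 5 and 25.6% (13.0% to 42.1%) on chromosome 18. IgG peaks within 1 kb of a TSS held CCAAT at the centre in 110 of 206 on the other autosomes (53.4%), and in 20.4% 1 kb to the right. On chromosome 5 it was found in 7 of 23 such IgG peaks (30.4%), and on chromosome 16 in the only 1. The part of this background in the TAF4 shares near the TSS was not tested. Over 10 kb from a TSS the share of TAF4 peaks on chromosome 16 was 45.2% (33.5% to 57.3%), with a range from 16.5% to 33.0% on the other autosomes. There, however, the windows 1 kb to the right held CCAAT in 38.4% (27.2% to 50.5%), and the 25 distal IgG peaks of chromosome 16 held it in 60% at the centre and 52% 1 kb to the right. Of these distal TAF4 peaks, 30.1% overlapped an IgG peak, and the part of this background in the share was not tested. This sequence and chromosome were singled out after the values of 4 consensus sequences (AP-1, ETS, KLF/SP and CCAAT) on 3 chromosomes had been seen.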
